A study of Mus musculus with 4 samples.

Results

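Genes for glucose transport, glycolysis, lactate handling and glycogen were described in the dentate gyrus (DG) of mice given electroconvulsive stimulation (ECS), a rodent model of electroconvulsive therapy. The set was drawn up by role and not by measured values, but with earlier results of these data known. It comprised 39 genes, of which 35 had at least 1 probe set annotated to their symbol alone, out of 12393 genes measured in this way. The 35 genes were read by 65 probe sets, and 18 of them by several. Gpi1, Eno1 and G6pdx had 0 probe sets with their symbol in the annotation used, and Gapdh was read by 3 control probe sets only, since its 2 other probe sets were shared with further symbols.

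The DG of male C57Bl/6 mice, bought at 8 weeks of age, was measured on 4 microarrays, 1 for each of 4 groups, and each array carried RNA pooled from 3 mice. Mice were dissected 1 h after sham treatment, 1 h after their first and only ECS, 48 h after the last of 10 ECS, or 1 h after the last of 11 ECS. The stimulus was bilateral (25 mA through ear clips, lasting 1 s, at a rate of 100 pulses per s, each 0.5 ms wide), with isoflurane anaesthesia. Repeated ECS was given 4 times a week over 3 weeks, and sham mice were handled without current. The mice with 10 ECS are also described as having had a sham session shortly before dissection. Titles, sources and treatment fields placed the samples in these groups, although the description field of 3 samples gives a different treatment. With 1 array per group there is no spread within a group, so no difference below was tested and all fold changes compare these arrays. Where several probe sets read a gene, their SD is given instead, which says nothing of the variation between arrays or mice.

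Neurons and glia take up glucose through facilitative transporters. Hexokinase traps it as glucose 6-phosphate, and glycolysis then converts it to pyruvate, which either enters the mitochondria through pyruvate dehydrogenase or is exchanged with lactate by lactate dehydrogenase. Monocarboxylate transporters carry lactate across the membranes of endothelial cells, astrocytes and neurons, and glycogen is the local glucose store, held mainly in astrocytes.

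The glucose transporter gene Slc2a1 and the lactate transporter gene Slc16a1 had higher signals 1 h after ECS, whereas most genes of glycolysis stayed under the 1.5-fold limit. Slc2a1, which encodes GLUT1, the glucose transporter of the blood-brain barrier and astrocytes, and Slc16a1, which encodes the lactate transporter MCT1, did so in mice with and without earlier ECS, though each stayed just under the limit in 1 of these comparisons. Signals are in the linear units of the array software. For ratios, values below a floor of 12 units were set to 12, and a gene was counted as higher or lower at a ratio of at least 1.5-fold, a size and not a test.

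The brightest probe set of Slc2a1 read 1084.6 units in sham, 1588.5 after a single ECS, 759.4 after 10 ECS and 1293.5 after 11 ECS. This is a 1.46-fold higher signal after a single ECS than in sham, just under the limit, and a 1.70-fold higher signal after 11 than after 10 ECS. The other probe sets read 674.4, 1160.0, 505.5 and 908.4 units, and 530.5, 814.0, 355.9 and 610.5 units, in the same order, and were 1.72-fold and 1.53-fold above sham after a single ECS. All 3 probe sets put the arrays in 1 order, with single ECS highest, then 11 ECS, then sham, and 10 ECS lowest. Over the 3 probe sets, the mean log2 ratio was 0.65 ± 0.12 (SD) for single ECS over sham and 0.80 ± 0.04 for 11 over 10 ECS. For 10 ECS over sham it was -0.50 ± 0.08, so the 48 h array lay below sham in each. Both acute ratios involve separate arrays, while the 10 ECS ratio shares its arrays with them. Among the 2049 genes with a mean signal of at least 500 units, 2.88% had a ratio of single ECS over sham at least as high as that of Slc2a1, and 1.66% a ratio of 11 over 10 ECS at least as high.

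Slc2a3, which encodes the neuronal glucose transporter GLUT3, had the same direction at a smaller size. Its brightest probe set read 2016.2 units in sham, 2507.6 after a single ECS, 1814.9 after 10 ECS and 2103.8 after 11 ECS, and the ratios of 1.24-fold and 1.16-fold stayed under the limit. The other probe set above the floor of 12 units read 1001.2, 1297.8, 877.9 and 977.4 units. In both, single ECS was highest and 10 ECS lowest, but they placed sham and 11 ECS in opposite order. Slc2a4, which encodes the insulin-responsive transporter GLUT4, was dim, with 48.9 units in sham, 13.8 after a single ECS, 19.6 after 10 ECS and 21.6 after 11 ECS. It was 3.54-fold lower after a single ECS than in sham, the lowest ratio of the 35 genes in that comparison, and 2.49-fold lower after 10 ECS. Sham thus stood apart from all 3 stimulated arrays, all of which were close to the floor. Its other probe set read 15.3, 2.8, 10.6 and 6.8 units, at or near the floor throughout.

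**Figure D1:**
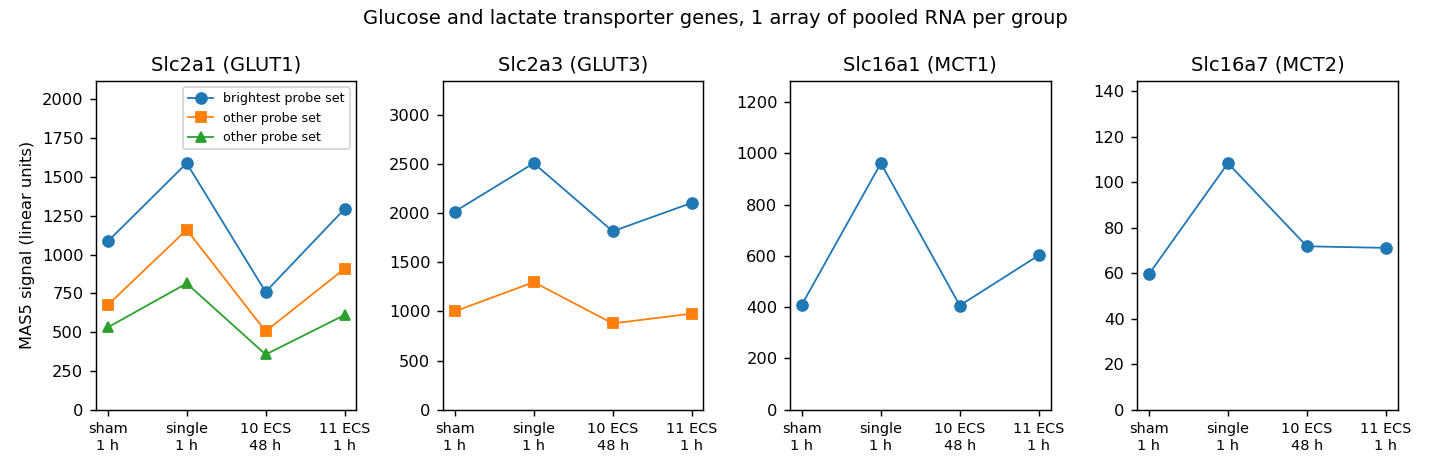
MAS5 signals in linear units (y axes, from 0) on the 4 arrays (x axes) for the glucose transporter genes Slc2a1 and Slc2a3 and the lactate transporter genes Slc16a1 and Slc16a7. Each line is a probe set above the floor on all arrays and each point 1 array of RNA pooled from 3 mice. The lines join groups only to guide the eye. The 3 probe sets of Slc2a1 share the order single ECS, 11 ECS, sham, 10 ECS from high to low. Slc16a1 was highest after a single ECS at 961.3 units and had about equal signals in sham and after 10 ECS.

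Among the genes for lactate, the transporter genes Slc16a1 and Slc16a7 passed the limit after a single ECS and the dehydrogenases stayed under it. Slc16a1 had the highest ratio of the 35 genes after a single ECS. It read 409.8 units in sham, 961.3 after a single ECS, 406.4 after 10 ECS and 602.0 after 11 ECS. The single ECS array was 2.35-fold above sham and the 11 ECS array 1.48-fold above 10 ECS. At 48 h after 10 ECS the signal was back within 1.01-fold of sham. Slc16a1 is read by 1 probe set, so it has no further reading on these arrays. Its signal was 1.60-fold lower after 11 ECS than after a single ECS, and 1.42% of genes with at least 500 units had a ratio at least as low.

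Slc16a7, which encodes the high-affinity lactate transporter MCT2 of neurons, was dim and read by 1 probe set. It had 59.6 units in sham, 108.3 after a single ECS, 71.8 after 10 ECS and 71.1 after 11 ECS. The single ECS array alone was high, 1.82-fold above sham, and the 11 ECS array was within 1.01-fold of that of 10 ECS. Slc16a3, which encodes MCT4, the transporter typical of glycolytic cells, read 14.9, 1.4, 11.6 and 11.2 units and so had no measurable ratio between 11 and 10 ECS.

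Ldha and Ldhb encode the lactate dehydrogenase subunits that predominate in lactate-producing and lactate-using tissue, respectively. Ldha read 1586.1 units in sham, 1855.3 after a single ECS, 1778.8 after 10 ECS and 1807.0 after 11 ECS, which is 1.17-fold higher after a single ECS. Ldhb read 1907.1, 1851.2, 1688.8 and 1679.7 units by the brightest of its 4 probe sets. All 3 stimulated arrays lay above sham for Ldha, by at most 1.17-fold. For Ldhb, both arrays with repeated ECS lay below sham by all 4 probe sets, by at most 1.24-fold after 10 ECS, whereas the single ECS array lay below sham by 3 probe sets and above it by 1, at 1777.3 against 1706.6 units. The brightest probe set of Ldhb, and the 1 with single ECS above sham, are of a type that can share sequence with other transcripts. So are all probe sets of Aldoa, the brightest of Tpi1, most of Pgd, the others of Pgk1, both of Slc2a3 above the floor and the second of Gys1.

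The promoters of Slc2a1, Slc16a1 and Ldha are shown because Slc2a1 and Slc16a1 had higher signals after each ECS, and Ldha carries the most matches to the letters searched while it differed little. Each is 250 bases before to 50 bases after a RefSeq transcript start in GRCm38.p6, 5′ to 3′ on the plus strand. Capitals mark ACGTG, the core letters of the hypoxia response element, found on either strand (as CACGT on the other). Where both overlap, the run CACGTG is also the letters of an E-box.
Slc2a1, chr4:119108495-119108794: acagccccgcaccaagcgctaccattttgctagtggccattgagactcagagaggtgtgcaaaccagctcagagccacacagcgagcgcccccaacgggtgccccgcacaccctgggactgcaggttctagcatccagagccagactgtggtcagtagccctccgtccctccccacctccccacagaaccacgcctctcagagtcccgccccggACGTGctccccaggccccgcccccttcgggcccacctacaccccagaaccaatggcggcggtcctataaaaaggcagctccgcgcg
Slc16a1, chr3:104638414-104638713: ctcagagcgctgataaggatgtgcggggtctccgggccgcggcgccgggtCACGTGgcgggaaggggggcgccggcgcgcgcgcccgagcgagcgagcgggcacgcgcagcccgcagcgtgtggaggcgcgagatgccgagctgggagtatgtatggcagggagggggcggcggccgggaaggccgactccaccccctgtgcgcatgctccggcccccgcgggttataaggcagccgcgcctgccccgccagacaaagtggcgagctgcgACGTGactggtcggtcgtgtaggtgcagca
Ldha, chr7:46845554-46845853: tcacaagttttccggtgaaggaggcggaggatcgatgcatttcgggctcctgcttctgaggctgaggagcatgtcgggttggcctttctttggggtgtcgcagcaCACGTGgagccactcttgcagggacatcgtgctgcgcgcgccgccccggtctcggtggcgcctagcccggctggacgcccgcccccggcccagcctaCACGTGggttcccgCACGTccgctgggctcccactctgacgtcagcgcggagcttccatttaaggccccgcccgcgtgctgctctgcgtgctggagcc
Counted by strand, ACGTG occurred 1 time in the window of Slc2a1, 3 times in that of Slc16a1 and 5 times in that of Ldha. The other RefSeq promoter of Ldha, which is not shown, held it 0 times. Of 47 RefSeq promoters of 32 of the genes, 26 (55.3%) held it, against 19.6% of all 32851 promoters of this length and 23.3% of the 12566 promoters of genes on the array. The run CACGTG was in 17.0% of the promoters of the set, 7.15% of all and 9.11% of those of genes on the array. For the cAMP response element TGACGTCA the shares were 2.13%, 1.79% and 2.51%, and for the AP-1 motif TGANTCA 2.13%, 7.81% and 6.45%. Base composition was not matched in these counts, several promoters belong to 1 gene, and a match is a description of letters.

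Genes for the enzymes of glycolysis, from hexokinase to pyruvate kinase, stayed under the limit with 1 exception. Of 14 measured glycolytic genes, including the regulators of fructose 2,6-bisphosphate, 1 was lower and 0 were higher after a single ECS, and 0 passed the limit in either direction between 11 and 10 ECS or between 10 ECS and sham. Of all genes tested, 3.05% were higher and 15.3% lower after a single ECS. The medians of the glycolytic genes were -0.11, -0.03 and -0.04 on the log2 scale in these comparisons, against -0.24, -0.11 and -0.14 for all genes. The exception was Hk2, which encodes the inducible hexokinase, with 88.9 units in sham, 48.2 after a single ECS, 88.2 after 10 ECS and 83.6 after 11 ECS. The single ECS array alone was low, 1.84-fold below sham and 1.73-fold below 11 ECS. Hk2 is read by 1 probe set.

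Hk1, which encodes the main hexokinase of brain, read 1202.9, 1041.5, 1136.1 and 1053.7 units in sham, single ECS, 10 ECS and 11 ECS. Pfkm, which encodes the muscle subunit of phosphofructokinase, read 1374.5, 1192.2, 1383.7 and 1329.2 units, and Pkm, which encodes pyruvate kinase, 1145.6, 1056.8, 1044.1 and 964.0. Over the 4 arrays the highest signal was 1.15, 1.16 and 1.19 times the lowest for Hk1, Pfkm and Pkm by these probe sets. A dimmer probe set of Hk1 read 83.3, 75.5, 92.3 and 65.1 units and was 1.42-fold lower after 11 than after 10 ECS. Aldoa, which encodes the widely expressed aldolase, read 6566.3, 6644.0, 6237.8 and 6860.3 units, and its 4 probe sets gave a mean log2 ratio of 0.06 ± 0.06 (SD) for single ECS over sham and 0.05 ± 0.07 for 11 over 10 ECS. Aldoc, the aldolase gene of astrocytes, was highest in sham at 5019.8 units, with 4312.4 after a single ECS, 4021.3 after 10 ECS and 4371.2 after 11 ECS. Its other probe set read 345.5, 293.8, 245.8 and 244.2 units, so the ratio of 10 ECS to sham was 1.25-fold lower by the first and 1.41-fold lower by the second.

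Further down, Pgam1, which encodes phosphoglycerate mutase, was higher on both arrays with repeated ECS. It read 1440.9 units in sham, 1522.1 after a single ECS, 1881.6 after 10 ECS and 1918.1 after 11 ECS, so the arrays split by repeated treatment and not by the time since the last ECS. The ratio of 10 ECS over sham, 1.31-fold, is under the limit, and 1.37% of genes with at least 500 units had one at least as high. Gapdh, by 3 control probe sets along the transcript, read 4573.9, 4681.3, 4631.1 and 4485.7 units at the 3′ end, 3936.0, 4075.1, 4294.8 and 4219.9 in the middle and 4467.5, 4435.9, 4809.8 and 4554.7 at the 5′ end. No stimulated array was more than 1.09-fold from sham by any of the 3. By the brightest probe set, the highest signal of Tpi1, Pgk1 and Eno2 was at most 1.06 times the lowest, but another probe set of Pgk1 was higher on both arrays at 1 h after ECS, at 1909.3, 2306.0, 1839.9 and 2437.0 units, 1.21-fold and 1.32-fold. Another probe set of Tpi1 spanned 1.14-fold. For Pfkl, Pfkp and Pfkfb3 the span was at most 1.27-fold by the brightest probe set and up to 1.38-fold by the others of Pfkl and Pfkp, and Pfkfb2, with 10.1 to 14.6 units, lay at or close to the floor.

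At the entry of pyruvate into the mitochondria, Pdk1 had lower signals at 1 h after each ECS. It encodes a kinase that inhibits pyruvate dehydrogenase. It read 226.2 units in sham, 147.5 after a single ECS, 276.1 after 10 ECS and 191.9 after 11 ECS. Its other probe set read 112.7, 78.5, 158.1 and 94.1 units. Both probe sets had the highest signal after 10 ECS and the lowest after a single ECS. Their mean log2 ratio was -0.57 ± 0.07 (SD, 2 probe sets) for single ECS over sham and -0.64 ± 0.16 for 11 over 10 ECS. By the brightest probe set the first, 1.53-fold lower, passed the limit and the second, 1.44-fold lower, did not. The signals of Pdk3, which encodes another isoform, ran the other way, at 151.0, 181.9, 122.1 and 162.3 units, with ratios of 1.20-fold and 1.33-fold. Pdk2 read 70.0, 49.5, 52.1 and 40.3 units and Pdha1, which encodes a subunit of the enzyme itself, 1344.5, 1152.6, 1405.0 and 1254.6 units.

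Of the 8 genes for glycogen, 0 passed the limit after a single ECS, where 3.05% of all genes were higher and 15.3% lower. Ppp1r3c encodes a subunit that targets protein phosphatase 1 to glycogen and activates its synthesis. It read 500.1 units in sham, 624.5 after a single ECS, 519.3 after 10 ECS and 754.8 after 11 ECS. Both arrays at 1 h after ECS lay above the other two, by 1.25-fold and 1.45-fold, and 2.78% of genes with at least 500 units had a ratio of 11 over 10 ECS at least as high. A dim second probe set read 29.4, 33.4, 38.6 and 42.7 units. Gys1, which encodes glycogen synthase, was dim, with 52.2 units in sham, 35.3 after a single ECS, 9.2 after 10 ECS and 27.8 after 11 ECS. The 10 ECS array was at the floor, at least 4.35-fold below sham and at least 2.32-fold below 11 ECS. The second probe set of Gys1 did not show this and read 10.8, 6.8, 16.0 and 3.5 units, with its highest signal after 10 ECS.

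Gbe1, which encodes the branching enzyme, separated the arrays by repeated treatment. It read 67.0 units in sham, 64.6 after a single ECS, 43.3 after 10 ECS and 44.3 after 11 ECS, which is 1.55-fold lower after 10 ECS than in sham and 1.46-fold lower after 11 than after a single ECS. The first ratio passed the limit in 2 of 6 settings only, and not under any of the 3 scalings of the arrays or with a floor of 50 units. Pygb, which encodes the brain form of glycogen phosphorylase, read 1144.4, 1043.0, 1160.2 and 1148.5 units, the highest 1.11 times the lowest. The muscle and liver forms, Pygm and Pygl, read 23.7 to 32.5 and 36.5 to 45.7 units. Gyg, which encodes the primer protein glycogenin, was highest after 10 ECS at 314.6 units, with 219.2 to 238.4 units on the other arrays. Pgm2, a phosphoglucomutase gene, was highest after 11 ECS at 61.6 units, with 39.4 to 44.2 elsewhere. Of the pentose phosphate pathway, Pgd was measured and read 272.5, 232.6, 263.4 and 253.2 units.

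**Figure D2:**
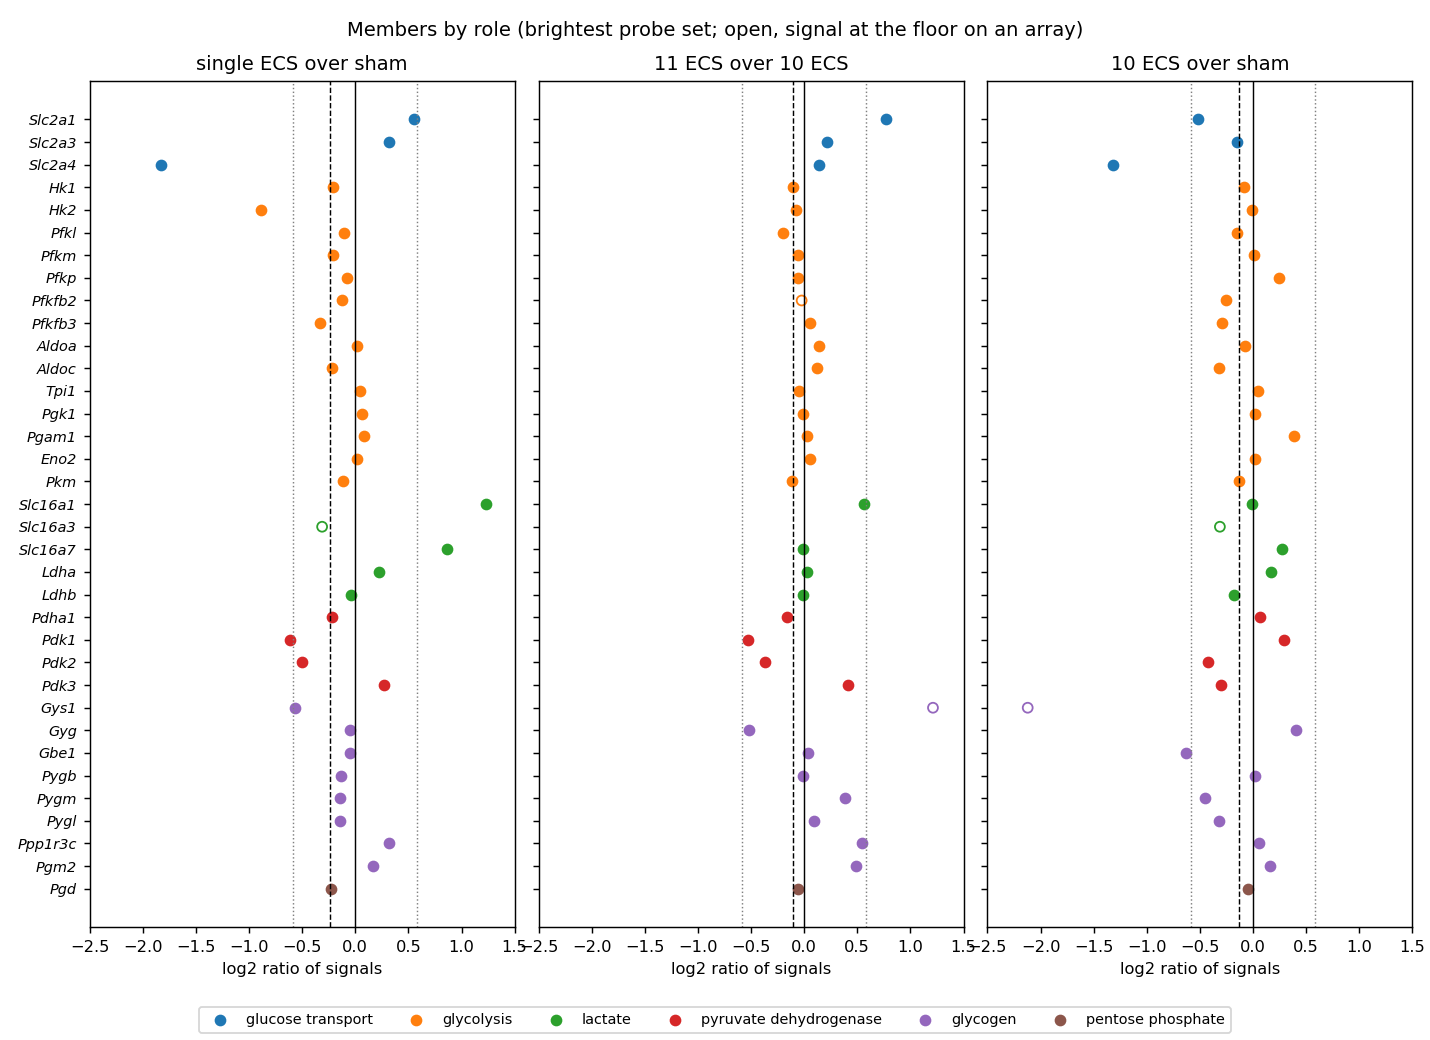
Log2 ratios of signals (x axes) of the 35 measured genes, ordered and coloured by role (y axis), for single ECS over sham, 11 ECS over 10 ECS and 10 ECS over sham. The solid line is 0, the dashed line the median of all genes and the dotted lines the 1.5-fold limit, and open circles mark a signal at the floor on an array. Glycolytic genes other than Hk2 lie between the dotted lines in all 3 panels, whereas Slc16a1 and Slc16a7 lie to the right of them after a single ECS.

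Counted over the set, 2 of 35 genes, Slc16a1 and Slc16a7, were higher after a single ECS than in sham, where 3.05% of all genes tested were. Slc2a4, Hk2 and Pdk1, 3 of 35, were lower, where 15.3% of all genes were. The median log2 ratio of the set was -0.11, against -0.24 for all genes. Between 11 and 10 ECS, 2 of 34 genes, Gys1 and Slc2a1, were higher (all genes, 3.45%) and 0 were lower (all genes, 6.90%), with a median of 0.01 against -0.11. Between 10 ECS and sham, 0 of 35 were higher (all genes, 2.94%) and 3, Gys1, Slc2a4 and Gbe1, were lower (all genes, 7.17%), with a median of -0.07 against -0.14. Between 11 ECS and a single ECS, Hk2 and Slc2a4 were higher (2 of 34; all genes, 4.34%) and Slc16a1 and Slc16a7 lower (2 of 34; all genes, 4.22%), with a median of -0.01 against 0.00. These 4 comparisons share arrays, apart from the pairs single ECS with sham and 11 with 10 ECS. The counts are small, and the share over all genes depends on brightness: of genes with at least 500 units, 2.78% were higher and 3.03% lower after a single ECS. The medians depend on the scaling. With all arrays scaled to the same median, the median of all genes after a single ECS moved from -0.24 to 0.05 and that of the set from -0.11 to 0.19. Slc2a1, Slc2a3, Slc16a1, Slc16a7, Hk2 and Pdk1 kept the sign of their ratio of single ECS over sham under each of the 3 scalings tried, whereas the small ratios of Hk1, Pfkm, Aldoa, Aldoc, Pkm, Ldhb, Gbe1 and Pygb changed sign under at least 1.

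The response to the 11th ECS minus that to a single ECS, on the log2 scale, was at least 1 for 2 of 35 genes, Slc2a4 and Gys1 (all genes, 2.40%). It was at most -1 for 0 (all genes, 1.13%). The median was 0.10 for the set and 0.13 for all genes. For Slc2a1 the difference was 0.22, for Slc2a3 -0.10 and for Pdk1 0.09, beside a pooled SD between probe sets of the set's genes of 0.14 and 0.15 in the 2 ratios subtracted. For Slc16a1 it was -0.66 and for Slc16a7 -0.88, both short of -1, so these 2 genes had smaller ratios after the 11th ECS. The difference passed the limit of 1 in 0 of 6 settings for Slc16a1 and in 2 of 6 for Slc16a7. Hk2, at 0.81, had a low signal after the single ECS only. Slc16a1, Slc16a7 and Hk2 have 1 probe set each. Over all genes with several, the pooled SD was 0.29 and 0.27 in the 2 ratios.

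Beyond the set, 137 further genes of glucose metabolism were listed by role, of which 98 had a probe set of their own symbol. Of 88 measured, 5 were higher and 13 lower after a single ECS than in sham, where 3.05% and 15.3% of all genes were. Of 89, 5 were higher and 9 lower between 11 and 10 ECS (all genes, 3.45% and 6.90%), and of 88, 2 were higher and 3 lower between 10 ECS and sham (all genes, 2.94% and 7.17%). Other hexose transporters contributed 0 of 5 to these calls after a single ECS, and other genes for pyruvate entry 0 of 5. Other genes for lactate and monocarboxylates contributed 1 higher of 5, Slc16a8, and 1 lower, Slc16a4. Both were lower between 11 and 10 ECS (2 of 5). They read at most 22.0 and 34.9 units, and Slc16a8 was at the floor in sham and after 11 ECS. The enzyme lists for glycolysis and gluconeogenesis (1 lower of 11), glycogen (1 lower of 12) and the pentose phosphate pathway (2 lower of 9) contributed none higher.

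Of 11 hypoxia-responsive genes outside glycolysis, P4ha1 and Vegfa were higher both after a single ECS (all genes, 3.05%) and between 11 and 10 ECS (all genes, 3.45%). Hmox1, which encodes heme oxygenase 1, was 1.97-fold lower after a single ECS (all genes lower, 15.3%), at 27.0, 13.7, 28.0 and 32.3 units. P4ha1, which encodes a collagen prolyl hydroxylase subunit, read 201.4 units in sham, 414.9 after a single ECS, 189.6 after 10 ECS and 354.9 after 11 ECS. Vegfa, the angiogenic growth factor gene, read 125.8, 226.6, 113.8 and 181.5 units. In both, the arrays at 1 h after ECS were the high ones, 2.06-fold and 1.87-fold for P4ha1 and 1.80-fold and 1.59-fold for Vegfa. Their second probe sets had log2 ratios of 1.2 and 0.96 after a single ECS, but 0.15 and 0.12 between 11 and 10 ECS. Ddit4, Bnip3 and Ndrg1, also hypoxia targets, were at most 1.20-fold apart in both by their brightest probe sets.

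Of 21 regulators of glucose metabolism, 2 were higher (Myc and Irs2) and 3 lower (Mlxipl, Irs1 and Arnt) after a single ECS, where 3.05% and 15.3% of all genes were. Between 11 and 10 ECS, 3 were higher (Myc, Irs2 and Egln3) and 2 lower (Irs1 and Mlxipl), where 3.45% and 6.90% of all genes were. Irs2, which encodes an insulin receptor substrate, read 203.6 units in sham, 373.4 after a single ECS, 134.4 after 10 ECS and 213.9 after 11 ECS. It was 1.83-fold and 1.59-fold higher after ECS and 1.51-fold lower after 10 ECS than in sham. Irs1, which encodes the other main insulin receptor substrate, ran the other way, at 329.9, 184.5, 320.5 and 175.1 units, 1.79-fold and 1.83-fold lower. Arnt and Egln3 read at most 19.0 and 32.0 units. Myc, the transcription factor gene, was 2.11-fold and 2.07-fold higher, at 38.9, 82.0, 36.3 and 75.0 units. Mlxipl, which encodes the glucose-sensing factor ChREBP, had 58.2, 31.4, 42.4 and 26.6 units and was 1.85-fold and 1.59-fold lower.

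Of 9 insulin-responsive and FoxO target genes, 4 were lower and 0 higher after a single ECS, where 15.3% and 3.05% of all genes were. Fbxo32, which encodes the ubiquitin ligase atrogin-1, read 60.2 units in sham, 17.1 after a single ECS, 47.5 after 10 ECS and 17.7 after 11 ECS. Its second probe set had log2 ratios of -1.7 and -0.043, so the low signal after the 11th ECS rests on 1 probe set. Sesn1, which encodes the stress-responsive sestrin 1, read 990.2, 511.3, 958.7 and 567.8 units, 1.94-fold and 1.69-fold lower, and its 2 other probe sets gave -1.0 and -0.96, and -0.40 and -0.79. Gadd45a was 1.80-fold lower after a single ECS, at 55.3, 30.7, 73.6 and 53.5 units. By the brightest probe sets, both arrays at 1 h after ECS were thus the low ones for Fbxo32 and Sesn1.

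Gsk3a, which encodes a kinase that inhibits glycogen synthase, was low on the same arrays. It read 1039.4 units in sham, 718.4 after a single ECS, 1269.2 after 10 ECS and 756.4 after 11 ECS, 1.45-fold and 1.68-fold lower. Rpia, which encodes ribose 5-phosphate isomerase, was low after the single ECS, at 171.7, 94.8, 145.1 and 133.0 units. G6pc3, which encodes the ubiquitous glucose 6-phosphatase, split by repeated treatment, at 123.4, 127.3, 69.5 and 75.7 units, 1.78-fold lower after 10 ECS than in sham. Bsg, which encodes a chaperone of the lactate transporter MCT1, did not have the order of Slc16a1 and read 532.9, 598.4, 627.1 and 529.0 units. Emb, listed with Bsg among further genes for lactate and monocarboxylates, read 150.3, 102.6, 126.1 and 115.6 units. It was 1.46-fold lower after a single ECS than in sham, and its other probe set had a log2 ratio of -0.38.

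**Figure D3:**
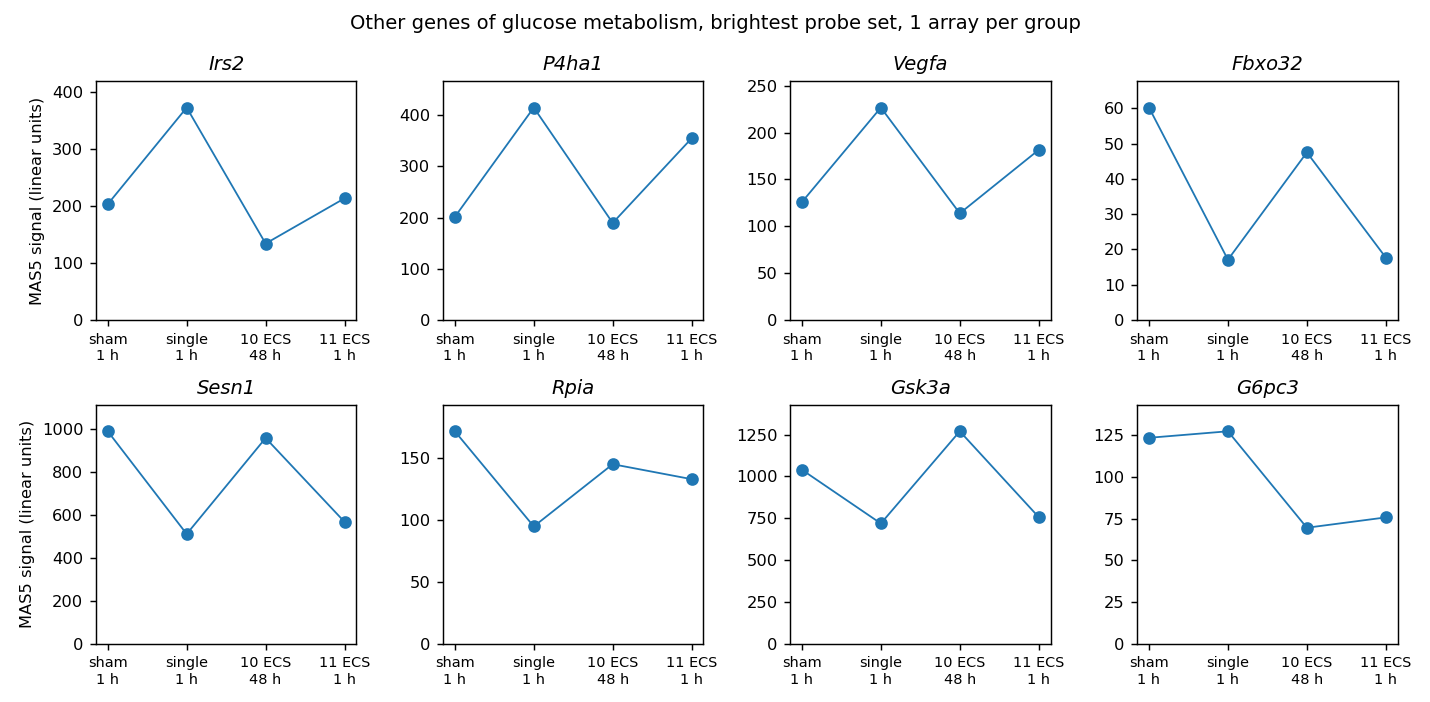
MAS5 signals in linear units (y axes, from 0) by array (x axes) for 8 further genes of glucose metabolism, picked for display after their values were seen. Points are single arrays of pooled RNA and lines only guide the eye. By the brightest probe set, which is shown, P4ha1 and Vegfa were high and Fbxo32, Sesn1 and Gsk3a low on the arrays at 1 h after ECS. Second probe sets of P4ha1, Vegfa and Fbxo32 had log2 ratios of only 0.15, 0.12 and -0.043 between 11 and 10 ECS. Irs2 was highest after the single ECS and lowest after 10 ECS, Rpia was low after the single ECS, and G6pc3 was low on both arrays with repeated ECS.

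The cell types that carry these transporters were checked on the same arrays, since bulk signals alone cannot tell fewer cells of a type from less RNA per cell. The 5 measured granule cell (GC) markers were all above the floor. So were all measured pyramidal cell, interneuron, astrocyte and oligodendrocyte markers, so passing this floor does not identify the tissue. The summed signal of the GC markers was 0.762 of sham after a single ECS, 0.520 after 10 ECS and 0.376 after 11 ECS. Calb1 and Dsp made up most of this sum, and Prox1, a GC identity gene, read 68.6, 69.8, 57.1 and 62.7 units. The other markers in this sum, Calb1, Dsp, Tdo2 and Il1r1, are genes whose expression the paper reports as reduced by ECS. The paper also reports that repeated ECS left the neuronal marker NeuN unaffected, and takes such evidence to exclude non-specific damage to GCs. This sum therefore cannot be read as a count of GCs. Of 11 measured endothelial markers 10 were above the floor, and their sum was 0.894, 1.04 and 0.936 of sham. Single members differed. Of the 10 with a ratio of single ECS over sham, 1 was above 0. This was Cldn5, with 126.4 units in sham, 178.2 after a single ECS, 183.5 after 10 ECS and 193.4 after 11 ECS. Sox18 was 3.39-fold and Kdr 1.54-fold lower after a single ECS than in sham. The sum of 10 astrocyte markers was 0.886, 0.891 and 0.899 of sham, although Gfap was 2.31-fold higher and Gjb6 1.53-fold lower after 10 ECS than in sham. Those of oligodendrocyte and microglia markers lay between 0.845 and 1.01, that of interneuron markers between 0.854 and 0.938 and that of mural and meningeal markers between 0.855 and 0.950. Within the last list members went both ways after 10 ECS, with Col3a1 5.92-fold, Col1a2 2.56-fold and Dcn 1.53-fold higher than in sham, Col1a1 at least 2.24-fold higher, and Ogn 7.21-fold lower. Pyramidal cell markers were at 0.920, 1.14 and 1.12 of sham, and choroid plexus markers, with 2 to 3 of 5 above the floor, at 1.61, 0.926 and 0.725. Both measured red blood cell markers were at or below the floor on all arrays, and 1 to 2 of 5 adipocyte and muscle markers were above it. The part of these differences in the ratios above was not tested. Array medians were 56.3 to 69.3 units, highest in sham, and 73.9% to 76.7% of probe sets lay above the floor. The trimmed mean of all signals was 238.6 units in sham, 214.0 after a single ECS, 217.1 after 10 ECS and 207.4 after 11 ECS. All stimulated arrays were thus dimmer than sham in general, and the marker sums were not adjusted for this.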

How the data were processed

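The 39 genes, the lists of further genes and markers and the rules were chosen with earlier results of these data known. RNA of the dentate gyrus (100 ng, pooled from 3 mice) was labelled with a 3' in vitro transcription kit and hybridised to Affymetrix Mouse Genome 430A 2.0 arrays. The authors computed 1 intensity per probe set and array with Microarray Suite 5.0 (MAS5), and the deposited values are these linear signals. The version and the scaling between arrays are not given in the sources used here, and the detection and change calls were not used here. The table held 22626 probe sets and 64 control probe sets. The platform annotation gave 20380 probe sets 1 symbol, 691 several and 1555 none, and only the first were used, for 12393 genes.

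A floor of 12 units, the 25th percentile of the signals, replaced lower values. For each gene the probe set brightest on average stood for the gene. Log2 ratios were taken for 4 comparisons, with a limit of 1.5-fold, and both responses were set against each other as the log2 ratio between 11 and 10 ECS less that between single ECS and sham, with a limit of 1. No ratio was given with both signals at the floor, and a bound with 1. Signals on every array are given for genes of the set past 1.5-fold with at least 48 units on the brighter array. They are also given for the main enzyme or transporter of each step. From each further list, a rule picked up to 3 genes farthest from 0 in single ECS over sham and up to 3 in 10 ECS over sham. Signals are shown for some of these only, selected after their values were seen. Further genes past the limit that are not shown include Ccng2, Klf15, Pgam2 and Adpgk. Genes outside these rules (Slc16a3, Slc16a4, Slc16a8, Pgam1, Pdk2, Pdk3, Pdha1, Pgd, Irs1, Hmox1, Arnt, Egln3 and single marker genes) were chosen after their values were seen. Precision is limited by the number of arrays: 1 array per group gives no SD, test or p-value. Scripts were tested on simulated data and run with Python 3.11.15, pandas 2.3.3 and numpy 2.4.6. The alternatives were a floor of 50, 3 scalings of the arrays and the median over the probe sets of a gene. Promoters were taken from RefSeq (GRCm38.p6).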

Additional observations from a re-analysis of the deposited data

Results flagged for a closer look

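The difference between the responses to the 11th and to the single ECS was large for 2 genes, with a negative ratio after the single and a positive one after the 11th ECS, and neither difference was tested, since each rests on 4 single arrays. For Slc2a4 it was 1.97 on the log2 scale, from 48.9 units in sham to 13.8 after a single ECS, against 19.6 after 10 ECS and 21.6 after 11 ECS. For Gys1 it was at least 1.78, a bound, since the 10 ECS signal was under the floor: from 52.2 to 35.3 units, against 9.2 and 27.8. Both genes have a second probe set at or near the floor, and both are dim.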

How the results depend on the processing

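No paired analysis was possible because each group has 1 array. Leaving out a replicate was not possible for the same reason. With all arrays scaled to the same median, 5 genes were at least 1.5-fold higher (adding Slc2a1, Slc2a3 and Ppp1r3c) and 1 lower after a single ECS, with a median of 0.19, 5 were higher between 11 and 10 ECS (adding Slc16a1, Ppp1r3c and Pgm2), and 1 had a difference of responses of at most -1. With the arrays scaled on genes of at least 500 units, 4 were higher between 11 and 10 ECS. Quantile normalization gave 5 there and 1 gene with a difference of at most -1. With a floor of 50 units, 1 gene was higher between 11 and 10 ECS, 0 were lower between 10 ECS and sham, 1 was higher between 11 and single ECS, and 0 had a difference of at least 1. With the median over probe sets, 1 was higher and 1, Pdk1, lower between 11 and 10 ECS, and 1 had a difference of at least 1. The other counts stayed within 1.5 times, and the other medians moved by less than the spread between probe sets. Of 353 values of single genes under an alternative, 327 moved by less than that spread and 26 by more. Over the 6 settings, including the values as deposited, the ratio of single ECS over sham was 1.46-fold to 1.80-fold for Slc2a1 (4 of 6 past 1.5-fold), and Slc2a1 passed in 6 of 6 between 11 and 10 ECS. Slc16a1 passed in 6 of 6 after a single ECS and in 3 of 6 between 11 and 10 ECS, and Pdk1 passed in 2 of 6 after a single ECS, as did Gbe1 between 10 ECS and sham. The cause of these moves was not tested beyond the construction of each setting. Low signal limits the ratios of Slc2a4, Gys1, Slc16a3 and Pfkfb2, which lie close to the floor on at least 1 array.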
